A study of Mus musculus with 18 samples.

Results

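The cytoplasmic ribosomal protein genes are the genes that encode the protein part of the ribosome outside the mitochondria. Here they were the protein-coding genes of the deposited table whose symbol is Rpl or Rps followed by a number and at most a short suffix, together with Rplp1, Rplp2 and Rpsa. Rplp0 and the ribosomal S6 kinases, whose names start with Rps6k, were left out by the rule. It gave 81 of the 29437 genes in the table, 32 of the small subunit and 49 of the large subunit. The large-subunit count includes the stalk genes Rplp1 and Rplp2. Among the 81 were 5 genes named as the "like" copy of another member (Rpl3l, Rpl7l1, Rpl22l1, Rpl39l and Rps27l). The members lie on 19 chromosomes, with 14 on chromosome 7 and 4 on the X chromosome.

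RNA was sequenced from bone marrow cells of mice aged 10 weeks that were wild type (WT) or null for the gene Ikzf2 (KO), which encodes Helios, a zinc finger protein of the Ikaros family, with 3 mice of each genotype. All cells were lineage-negative and carried Sca1 and Kit at the surface. Stem cells with long-term activity, the LT-HSC, were CD48-negative and CD150-positive, the myeloid-biased multipotent progenitors MPP3 were CD48-positive, CD150-negative and Flt3-negative, and the lymphoid-biased progenitors MPP4 were Flt3-positive. Each mouse gave all 3 populations, so there were 6 groups of 3 libraries, numbered 1 to 3 by mouse. The labels call the KO mice Helios null and say no more of the allele, so that the effect of Helios within the sorted cells and its effect through other cells cannot be told apart.

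A ribosome holds a small subunit, which decodes the messenger RNA, and a large subunit, which joins amino acids, and each ribosomal protein is built in as 1 copy apart from the stalk proteins, which recruit translation factors. Messenger RNAs of ribosomal proteins start with a run of pyrimidines, the 5′ terminal oligopyrimidine (TOP) motif, through which growth signals set their translation. Stem cells of the bone marrow are known to make protein at a lower rate than the progenitors they give rise to, and loss of 1 copy of several of these genes causes Diamond-Blackfan anaemia in people.

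Total counts per library were 21053050 to 45410959, and 17362 to 20272 genes had a read, fewest in the libraries numbered 1. No KO library reached the lowest WT library of its population in Ikzf2, with means of 9.62 against 40.4 reads per 1000000 (CPM) in LT-HSC, 20.7 against 48.8 in MPP3 and 8.30 against 32.8 in MPP4. The gate genes followed the labels in WT cells. Cd48 averaged 6.05 CPM in LT-HSC, 313 in MPP3 and 285 in MPP4, Slamf1, which encodes CD150, averaged 69.7, 5.66 and 0.87, and Flt3 averaged 90.2, 786 and 3282. CPM are scaled by TMM, edgeR's correction for differences in library composition, and are means of 3 libraries unless given per library. MPP3 WT 1, MPP3 WT 2 and MPP3 KO 1 stood apart by transcripts of B and plasma cells. The 12 markers of those cells summed to 3683, 4039 and 3220 CPM there, against 325 to 469 CPM in the other 3 MPP3 libraries, 200 to 285 CPM in LT-HSC and 952 to 1696 CPM in MPP4. All 12 had a read in both MPP3 groups and 10 in both MPP4 groups, while 10 had a read in LT-HSC WT and 9 in LT-HSC KO. The 14 markers of mature neutrophils summed to 78.4, 176 and 365 CPM in LT-HSC WT and 105, 62.3 and 65.4 CPM in LT-HSC KO, where Ly6g and Cd177 had 0 reads. They summed to 261 to 391 CPM in MPP3 and 233 to 315 CPM in MPP4. Csf3r was the highest of the 14 in every group. Its mean was 96.8 CPM in LT-HSC WT, 71.8 in LT-HSC KO, 318 in MPP3 WT, 271 in MPP3 KO and 264 in both MPP4 groups. It made up most of the sums in MPP3 and MPP4. In such bulk samples fewer cells of a type and less RNA per cell cannot be told apart.

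The start sites of 8 members are printed here because they carry, or lack, a pyrimidine run near the annotated start and because their levels are described below. They are 3 abundant members (Rpl4, Rps3 and Rps9), the pairs of Rps27 with Rps27l and of Rpl22 with Rpl22l1, and the paralog Rpl7l1 alone. Each line gives 30 bases before and 25 from the annotated start of the gene onward on its own strand, 5′ to 3′, from RefSeq on GRCm38.p6, and the capitals mark the longest run of C or T that lies at least in part within 20 bases of the start.
Rpl4, chr9:64173357-64173411, plus strand: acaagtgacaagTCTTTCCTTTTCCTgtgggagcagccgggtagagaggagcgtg
Rps3, chr7:99483685-99483739, minus strand: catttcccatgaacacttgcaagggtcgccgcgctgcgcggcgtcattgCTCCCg
Rps9, chr7:3704011-3704065, plus strand: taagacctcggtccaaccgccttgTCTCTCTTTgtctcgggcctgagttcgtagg
Rps27, chr3:90213624-90213678, minus strand: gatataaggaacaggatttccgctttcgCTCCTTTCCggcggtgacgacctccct
Rps27l, chr9:66946056-66946110, plus strand: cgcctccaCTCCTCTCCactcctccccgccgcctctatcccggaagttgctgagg
Rpl22, chr4:152325696-152325750, plus strand: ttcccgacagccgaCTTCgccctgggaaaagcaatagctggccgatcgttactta
Rpl22l1, chr3:28805478-28805532, plus strand: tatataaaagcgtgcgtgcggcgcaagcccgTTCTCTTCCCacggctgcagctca
Rpl7l1, chr17:46782632-46782686, minus strand: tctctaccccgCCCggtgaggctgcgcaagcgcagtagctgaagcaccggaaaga
Rpl4 had a run of 14 pyrimidines, Rpl22l1 of 10, and Rps9, Rps27 and Rps27l of 9. The runs of Rps3, Rpl22 and Rpl7l1 had 5, 4 and 3 bases. The runs marked in Rpl4 and Rps27l, with first bases at -18 and -22, ended before the annotated start. A TOP motif begins the mRNA, so a marked run is not shown to be a TOP motif. An annotated start need not be the start used in these cells, so a short run says only that these letters are not in this window.

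Of the 81 members 61 had a promoter entry, among 27025 promoters in the RefSeq table. A pyrimidine run of at least 8 bases near the start was found in 30 of the 61 (49.2%) and in 20.8% of all promoters, and a run of at least 10 in 21 (34.4%) and in 10.4%. The median longest run was 7 bases in the members and 5 over all promoters. Motifs were then searched on both strands from 250 bases before to 50 after the start. CCGGAAG, bound by GABP and other ETS factors, was found in 25 members (41.0%) against 9.12% of all promoters. GGGCGG, bound by Sp1, was found in 36 (59.0%) against 35.9%, CTTTCC in 28 (45.9%) against 26.3%, and AAGATGGC, bound by YY1, in 5 (8.2%) against 2.88%. The E-box CACGTG, bound by Myc, was in 5 (8.2%) against 7.24%, and TATAAA in 5 (8.2%) against 14.2%. TGGGAA, the core that the Ikaros family including Helios recognises, was in 16 members (26.2%) against 25.5% of all promoters. These matches are descriptions of the sequence and were not tested as binding sites.

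The levels of the members were spread widely, although each protein is needed once per ribosome. Over the 18 libraries 4 members averaged under 1 CPM, 25 from 1 to 10, 36 from 10 to 100 and 16 over 100. Rpl4, a large-subunit protein that lines the exit tunnel (chr9:64173375-64178666, mm10), alone took 19.1% of the summed CPM of the members. Rps3, a small-subunit protein at the mRNA entry (chr7:99477896-99483738), took 12.1%, Rpl8 (chr15:76904078-76906314) 7.73% and Rps9 (chr7:3703993-3706897) 4.73%. Per kb of transcript, which allows genes to be compared, Rpl4 stood at 1524 CPM per kb, Rps3 at 866, Rpl8 at 621 and Rps14 at 476. At the other end stood Rpl3l at 0.285, Rpl24 at 0.753, Rpl23a at 1.21, Rps10 at 1.61 and Rpl17 at 2.33 CPM per kb. The highest tested member thus exceeded the lowest 5341-fold per kb. That lowest member, Rpl3l, is a copy of Rpl3 used in heart and skeletal muscle, so the ratio does not describe proteins needed once per ribosome. The next lowest was Rpl24 at 0.753 CPM per kb.

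Ribosomal protein genes have many processed pseudogenes, and members with more repeated sequence tended to have lower levels, with exceptions. Stretches of 50 bases of each member were looked for in the GENCODE M21 transcripts of other genes, pseudogenes included. In 78 of 81 members at least 1 stretch occurred elsewhere, with a median of 38.3% of a member's stretches and a range from 0 to 95.1%. The 20 members with under 25% repeated had a median level of 177 CPM per kb, the 50 members between 25 and 75% had 30.3 and the 11 members over 75% had 6.52. Across the members, which share libraries and are not independent replicates, Spearman's rho between level per kb and repeated share was -0.457, and it was -0.396 with 36-base and -0.521 with 100-base stretches. Rps3 had 2.82% of its stretches elsewhere, Rpl8 6.30%, Rpl4 16.5% and Rps14 16.3%. Among the lowest members Rpl23a had 85.7%, Rpl24 81.7%, Rpl17 44.7% and Rps10 30.8% elsewhere, while Rpl3l, the lowest tested member, had 0%. The 246 genes of the table named as ribosomal protein copies with "-ps" held 0.698% as many reads as the members. How the authors' counting treated reads that match several genes is not stated in the labels or files used here, so levels of members with copies are uncertain, and differences between genes in level were not tested as biology.

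**Figure D1:**
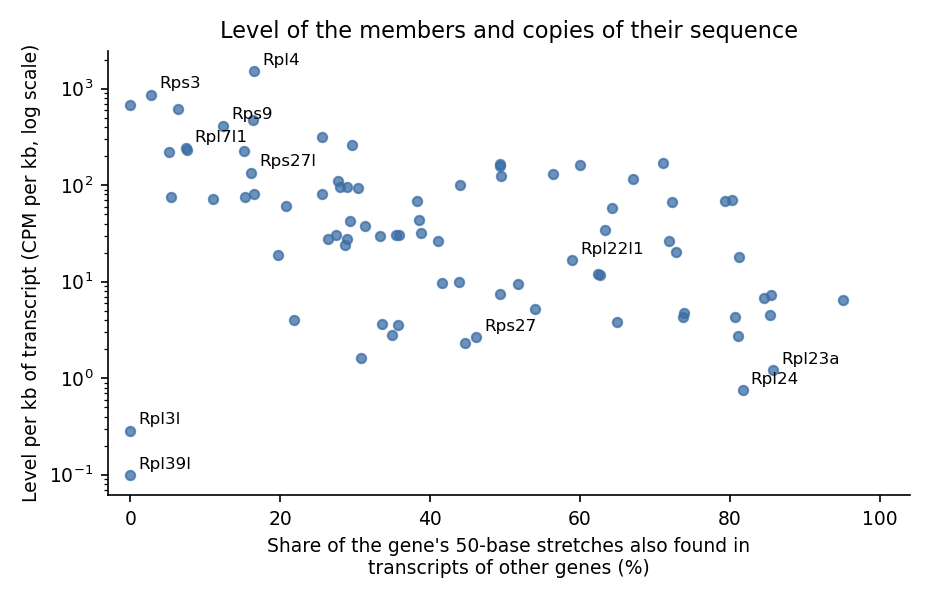
Each point is 1 member, with the share of its 50-base stretches that also occur in transcripts of other genes on the x axis (percent) and its mean level over 18 libraries on the y axis (CPM per kb of transcript, log scale). Members with under 25% repeated sequence lie mostly high (median 177 CPM per kb) and those over 75% mostly low (median 6.52 CPM per kb).

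In WT cells the summed level of the ribosomal protein genes was higher in every progenitor library than in every stem cell library. It was 4450, 5334 and 5448 CPM in LT-HSC WT libraries 1, 2 and 3, 6062, 6831 and 8660 CPM in MPP3 WT, and 6508, 8269 and 8336 CPM in MPP4 WT. The MPP3 and MPP4 libraries overlapped. Within each mouse, MPP3 exceeded LT-HSC by 1.36-, 1.28- and 1.59-fold and MPP4 exceeded LT-HSC by 1.46-, 1.55- and 1.53-fold. Both subunits took part. The small-subunit genes summed to 2196 ± 260 CPM in LT-HSC (SD, n = 3), 3400 ± 735 in MPP3 and 3651 ± 539 in MPP4, and the large-subunit genes to 2881 ± 286, 3784 ± 600 and 4053 ± 499 CPM. All members together held 0.455% to 0.864% of the reads of a library over the 18 libraries.

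**Figure D2:**
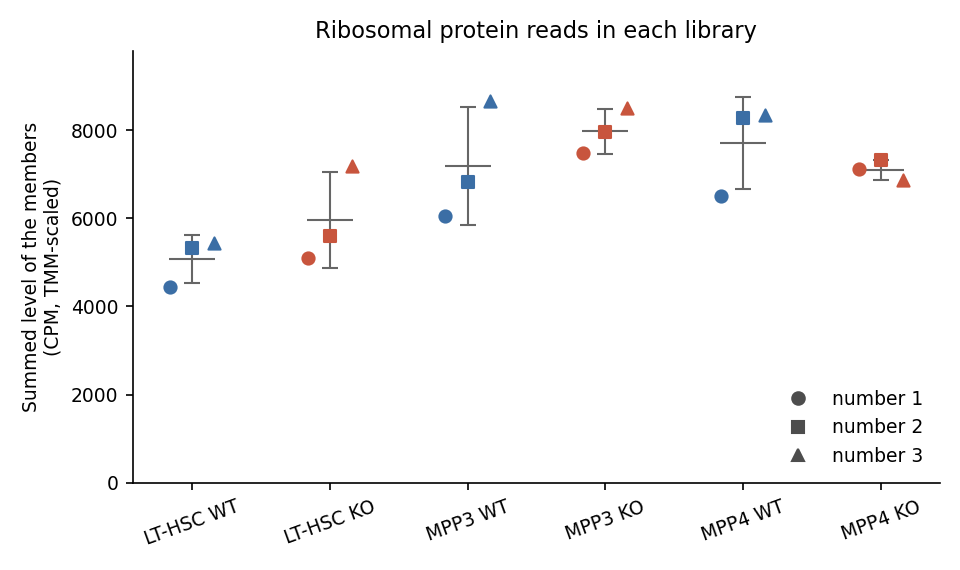
Summed level of the members in each of the 18 libraries (y axis, CPM after TMM scaling, from 0), by group, with points for libraries and the mean and SD of each group. The WT progenitor libraries (6062 to 8660 CPM) lie above the LT-HSC WT libraries (4450 to 5448 CPM).

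The quasi-likelihood test of edgeR, with p-values adjusted over 16325 genes by Benjamini-Hochberg and called at 0.05, found 18 of the 80 tested members higher in WT MPP3 than in LT-HSC and 0 lower. Of all tested genes 9.68% were higher and 7.66% lower in that comparison. In WT MPP4 against LT-HSC 43 of 80 were higher and 0 lower, where 14.1% of all tested genes were higher and 13.1% lower. The 81st member, Rpl39l, did not pass the filter on low counts. A log2 fold change above 0 was found for 76 members in MPP3 and 71 in MPP4, with medians of 0.56 and 0.64, while the median of all genes was -0.00 and -0.01. In 41 members all 3 MPP3 libraries lay above all 3 LT-HSC libraries (19.1% of all genes did so), and in 49 members all 3 MPP4 libraries did (21.6% of all genes). With the mouse as a block the counts were 42 in MPP3 (13.4% of all genes were higher) and 54 in MPP4 (17.4% of all genes). DESeq2 called 28 members in MPP3 and 46 in MPP4 (11.1% and 14.7% of all genes were higher), and limma voom 36 and 51 (13.5% and 18.8%). The MPP3 count was 3 without MPP3 WT 3, 7 without LT-HSC WT 1 and 28 without MPP3 WT 1. The MPP4 count was 17 without LT-HSC WT 1 or without MPP4 WT 2 and 15 without MPP4 WT 3. Both comparisons share the LT-HSC libraries. Within their own populations the highest marker sums were in MPP3 WT 1 and 2 (B and plasma cells) and LT-HSC WT 2 and 3 (neutrophils). Without these libraries and MPP3 KO 1, which leaves 1 WT library of each of these populations, the medians were 1.08 in MPP3 and 0.85 in MPP4. The libraries left were LT-HSC WT 1 and MPP3 WT 3. LT-HSC WT 1 had the lowest summed level of the members among the 18 libraries (4450 CPM) and the fewest genes with a read (17362). The removal of the markers and the choice of libraries left cannot be told apart in these medians. No common cut was applied across populations. LT-HSC WT 2 had a neutrophil sum of 176 CPM, while every MPP3 and MPP4 library had 233 CPM or more. Most of the sum in MPP3 and MPP4 was the single gene Csf3r, with means of 318 CPM in MPP3 WT and 264 CPM in MPP4 WT. Its mean in LT-HSC WT was 96.8 CPM. MPP3 WT 3, the WT MPP3 library with the lowest B and plasma cell sum (469 CPM), had the highest summed level of the members (8660 CPM). The part of these markers in the result was not tested further.

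**Figure D3:**
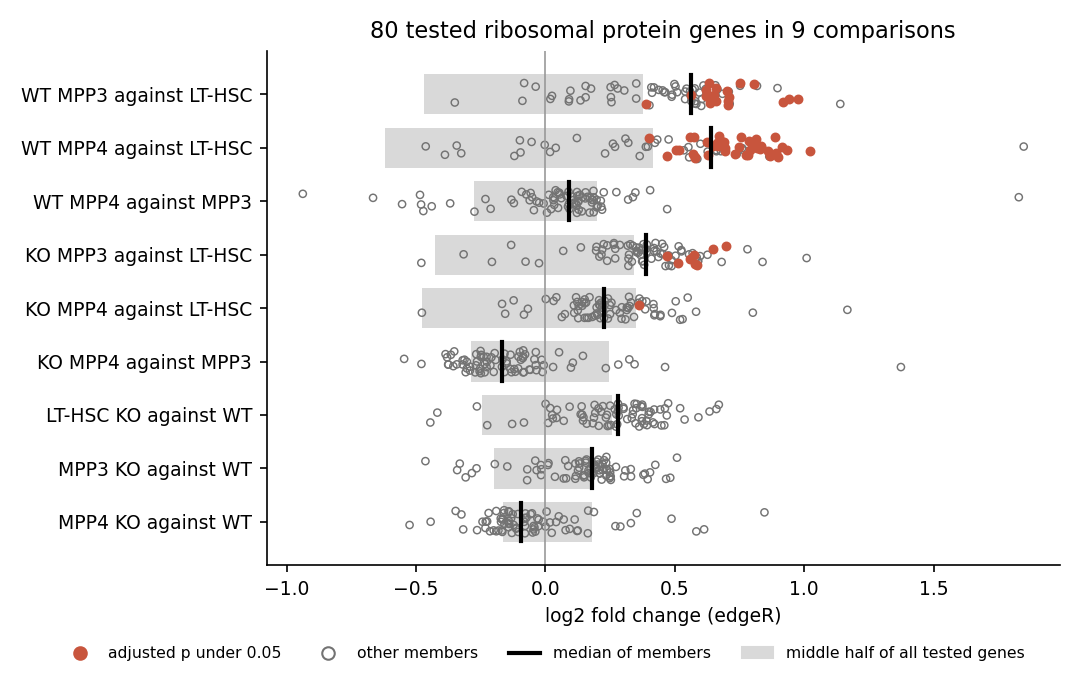
Log2 fold change (edgeR, x axis) of each of the 80 tested members in 9 comparisons (rows), filled where the adjusted p is under 0.05, with a bar at the median of the members and a grey band over the middle 50% of all tested genes. Filled points lie to the right in WT MPP3 and WT MPP4 against LT-HSC (18 and 43 members), and none is filled in KO against WT.

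Among the small-subunit genes 10 of 32 rose in MPP3 and 20 of 32 in MPP4. Rps9, a small-subunit assembly protein of the ribosome body, had 198, 228 and 220 CPM in LT-HSC WT, 307, 321 and 424 CPM in MPP3 WT and 354, 398 and 398 CPM in MPP4 WT. No progenitor library overlapped the LT-HSC libraries. Its log2 fold change was 0.70 ± 0.14 (SE) in MPP3 and 0.83 ± 0.14 in MPP4 (adjusted p by edgeR = 0.00237 and 0.000288). Rps2, which lies at the mRNA entry channel, had 80.8, 81.8 and 94.2 CPM in LT-HSC, 134, 124 and 148 CPM in MPP3, and 141, 143 and 148 CPM in MPP4. Neither progenitor overlapped LT-HSC, and the log2 fold changes were 0.66 ± 0.13 and 0.75 ± 0.13 (edgeR adjusted p = 0.00283 and 0.000503).

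Rps3 had 486, 586 and 625 CPM in LT-HSC, 708, 841 and 1085 CPM in MPP3 and 775, 1035 and 1056 CPM in MPP4. Both progenitors lay above LT-HSC without overlap (log2 0.63 ± 0.16 and 0.76, edgeR adjusted p = 0.0131 and 0.00238). Rps14, whose loss in the human 5q- syndrome impairs red cell formation, rose by 0.62 and 0.67 (edgeR adjusted p = 0.0122 and 0.00447). Rps25, which is needed for initiation at some viral internal entry sites, rose by 0.81 ± 0.21 and 0.89 (edgeR adjusted p = 0.0147 and 0.00486).

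The largest log2 fold changes past the test belonged to weakly counted members. Rps16 (chr7:28350652-28353155) had 3.82, 3.42 and 3.58 CPM in LT-HSC WT, 5.67, 6.34 and 9.29 CPM in MPP3 WT and 5.88, 7.62 and 7.16 CPM in MPP4 WT. It rose by 0.98 ± 0.27 and 0.93 ± 0.27 (edgeR adjusted p = 0.0211 and 0.0176), and neither progenitor overlapped LT-HSC. Of its 50-base stretches 41.6% were found elsewhere. Rps27a, a fusion of ubiquitin and a ribosomal protein, rose by 0.92 and 0.89 (edgeR adjusted p = 0.0376 and 0.0292). Neither passed when only the 6 libraries compared entered the fit. Of the 28 tested members under 10 CPM, 2 rose in MPP3 (7.14%) and 4 in MPP4 (14.3%), near the 9.68% and 14.1% of all tested genes. Of the 52 members at or above 10 CPM 16 rose in MPP3 and 39 in MPP4.

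Among the large-subunit genes 8 of 48 rose in MPP3 and 23 of 48 in MPP4. Rpl8, a conserved protein near the peptidyl transferase centre, had 336, 383 and 380 CPM in LT-HSC WT, 488, 541 and 663 CPM in MPP3 WT and 511, 620 and 625 CPM in MPP4 WT. Neither progenitor overlapped LT-HSC (log2 0.62 ± 0.14 and 0.67, edgeR adjusted p = 0.00522 and 0.00149). Rpl4 changed less. It had 1014, 1137 and 1182 CPM in LT-HSC, 1207, 1344 and 1492 CPM in MPP3 and 1286, 1596 and 1511 CPM in MPP4, and passed in MPP4 (0.40 ± 0.10, edgeR adjusted p = 0.00952) and not in MPP3 (0.28 ± 0.10, edgeR adjusted p = 0.0769).

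Rpl27 (chr11:101442298-101445529) had 11.4, 8.38 and 10.4 CPM in LT-HSC WT, 18.6, 15.6 and 23.9 CPM in MPP3 WT and 13, 18.1 and 24.1 CPM in MPP4 WT, where library 1 lay nearest to the stem cells. It rose by 0.94 ± 0.23 and 0.87 ± 0.23 (edgeR adjusted p = 0.0106 and 0.0103). Rpl39, a short protein of the exit tunnel, rose by 0.70 and 0.90 (edgeR adjusted p = 0.0241 and 0.0033). In MPP4 Rpl19 had 4.69, 3.68 and 5.85 CPM against 1.87, 2.50 and 2.61 CPM in LT-HSC and rose by 1.02 ± 0.34 (edgeR adjusted p = 0.0334), and Rpl31 rose by 0.91 ± 0.29 (edgeR adjusted p = 0.0264). The stalk gene Rplp1 had 47.9, 62.5 and 57.7 CPM in LT-HSC and 78.6, 103 and 117 CPM in MPP4 and rose by 0.83 ± 0.27 (edgeR adjusted p = 0.0283), as did Rplp2 by 0.69 (edgeR adjusted p = 0.0453). In MPP3 the stalk genes stood at 0.66 and 0.58 and did not pass (edgeR adjusted p = 0.0997 and 0.119). Of the 19 tested members that are mutated in Diamond-Blackfan anaemia, 2 rose in MPP3 (10.5%, near the 9.68% of all tested genes) and 9 in MPP4 (47.4%, against 14.1%).

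**Figure D4:**
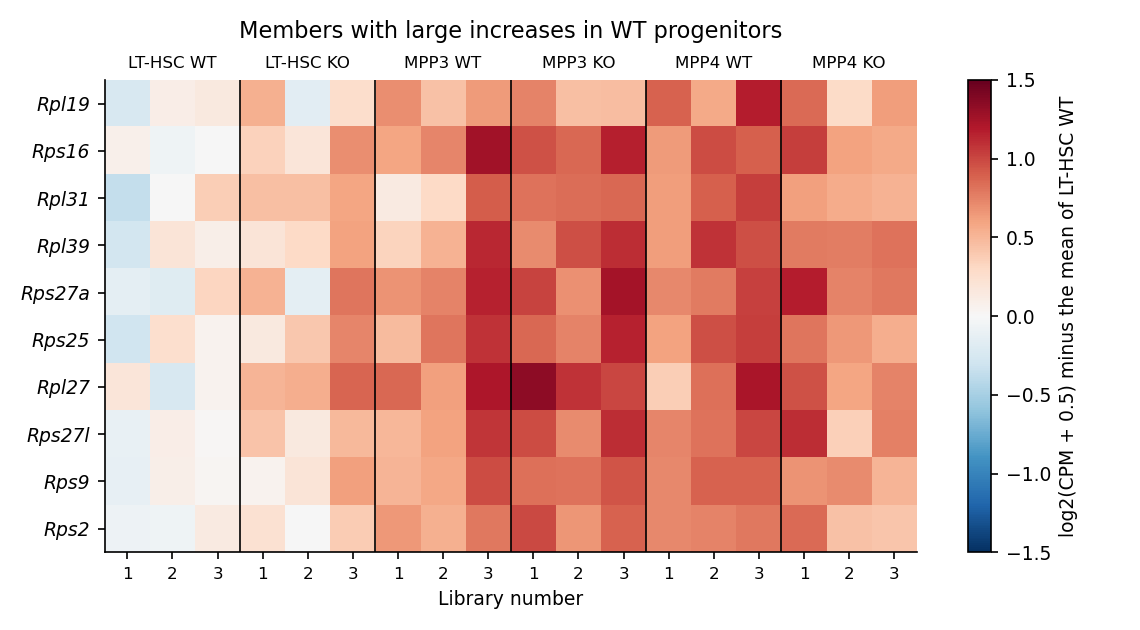
Level of 10 members with large increases in WT progenitors, as log2(CPM + 0.5) minus the mean of LT-HSC WT (colour), in each library (columns, by group and library number). The members were picked for their increases in the WT progenitor columns. The progenitor columns of both genotypes are mostly red, and the LT-HSC KO columns also lie mostly above 0. The strongest value is 1.34 for Rpl27 in MPP3 KO.

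Between the progenitors no member passed the test. In WT MPP4 against MPP3 0 of 80 were higher and 0 lower by edgeR, and 0 had an unadjusted p under 0.05. Of all tested genes 2.19% were higher and 2.62% lower there. Such calls do not show that shifts as small as those of the members could be called. Of the 80 members 58 lay above 0, with a median of 0.09. The sign of that median turned without the libraries with the highest marker sums of their populations. There 1 MPP3 WT library was left and the median was -0.23. That library, MPP3 WT 3, had the highest summed level of the members among the 18 libraries (8660 CPM). The MPP4 libraries lay above all MPP3 libraries in 1 member and below them in 1 (9.98% and 10.8% of all genes).

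Other genes of protein synthesis were read beside the members, and each of the 5 lists that follow had a smaller median than the members in both comparisons. The differences between lists were not tested. Over all tested genes 9.68% were higher and 7.66% lower in MPP3, and 14.1% were higher and 13.1% lower in MPP4. Of 77 tested mitochondrial ribosomal protein genes 25 were higher in MPP3 and 34 in MPP4 and 0 lower, with medians of 0.38 and 0.43. Mrpl36 had 109 ± 16 CPM in MPP3 against 61.5 ± 5.3 CPM in the stem cells and rose (log2 0.82 ± 0.14, edgeR adjusted p = 0.00106). Of 20 genes with a TOP motif, which are translation factors and genes of other roles, 7 were higher and 1 lower in MPP3 and 10 higher and 1 lower in MPP4, with medians of 0.30 and 0.38. Vim, which encodes vimentin, rose by 1.0 ± 0.16 in MPP3 (edgeR adjusted p = 0.000411), and Eef1b2, a subunit of the elongation factor exchange complex, by 0.78 ± 0.13 in MPP4 (edgeR adjusted p = 0.00041). Eif4a2, an RNA helicase of initiation, was the lower gene in both, at -1.0 ± 0.19 and -0.95 (edgeR adjusted p = 0.00168 in MPP3).

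Of 65 ribosome assembly and rRNA processing factors 9 rose in MPP3 and 12 in MPP4, with medians of 0.17 and 0.12. The shares of all tested genes that rose were 9.68% and 14.1%. Nhp2, a core protein of box H/ACA particles, rose by 0.86 ± 0.16 and 0.90 (edgeR adjusted p = 0.00169 and 0.000583). Of 14 genes of RNA polymerase I, which makes the rRNA precursor, 3 rose in each (21.4%) and 0 were lower, with medians of 0.14 and 0.12. Among 20 regulators Myc, a transcription factor that drives ribosome production, rose by 0.67 and 0.74 (edgeR adjusted p = 0.00933 and 0.00262). Its relative Mycn stood at -2.0 ± 0.25 and -1.91 (edgeR adjusted p = 4.53e-05 and 2.27e-05). In all, 2 regulators were higher and 3 lower in MPP3, and 1 higher and 3 lower in MPP4. The 4745 other tested protein-coding genes whose transcripts are as long as those of the members, 367.5 to 1054 bases, had medians of 0.13 in both comparisons.

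In KO cells the same steps from stem cell to progenitor gave 8 calls in MPP3 and 1 in MPP4, all higher. The members summed to 5103, 5599 and 7187 CPM in LT-HSC KO, 7472, 7951 and 8493 CPM in MPP3 KO and 7108, 7311 and 6868 CPM in MPP4 KO. LT-HSC KO 3 lay within the range of the MPP4 KO libraries, and the MPP3 KO libraries lay above both other groups. Within a mouse MPP3 exceeded LT-HSC by 1.46-, 1.42- and 1.18-fold, while MPP4 stood at 1.39, 1.31 and 0.956 times LT-HSC. By edgeR 8 of 80 members were higher in KO MPP3 than in KO LT-HSC and 0 lower (6.85% of all genes were higher and 6.82% lower), with 74 above 0 and a median of 0.39. In KO MPP4 against LT-HSC 1 was higher and 0 lower (9.57% of all genes were higher and 10.5% lower), with 74 above 0 and a median of 0.22. With the mouse as a block these counts were 23 (9.93% of all genes were higher) and 10 (12.6%). DESeq2 called 14 and 2 members (8.94% and 10.8% of all genes were higher) and limma voom 22 and 3 (9.87% and 12.4%). The count in MPP3 was 1 without LT-HSC KO 1, LT-HSC KO 2 or MPP3 KO 3, 4 without MPP3 KO 1, 5 without MPP3 KO 2 and 18 without LT-HSC KO 3. The count in MPP4 was 0 without LT-HSC KO 1 or LT-HSC KO 2, 2 without MPP4 KO 2 or MPP4 KO 3 and 3 without LT-HSC KO 3.

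The 8 members included Rps2 at 0.65 (edgeR adjusted p = 0.00358), Rps9 at 0.56 (0.0124), Rpl8 at 0.51 (0.0192), Rps3 at 0.58 (0.0254) and Rps27l at 0.59 (0.0462). The 1 member in MPP4 was Rpl4, which rose by 0.36 ± 0.10 (edgeR adjusted p = 0.0207). It had 1041, 1046 and 1312 CPM in LT-HSC KO and 1426, 1514 and 1425 CPM in MPP4 KO, without overlap. In KO MPP4 against MPP3 0 members were called in either direction by edgeR (2.76% of all genes were higher and 2.68% lower), and 2 had an unadjusted p under 0.05 (2.5%, against 16.2% of all tested genes). There 11 of 80 lay above 0, the median was -0.17, and in 19 members all 3 MPP4 libraries lay below all 3 MPP3 libraries (10.8% of all genes did so).

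The comparison of KO with WT asked whether Helios sets the level of these genes within a population. By edgeR 0 of 80 members passed in LT-HSC, MPP3 or MPP4 in either direction. Of all tested genes 0.0184% were higher and 0.0429% lower in LT-HSC, 0.00613% higher in MPP3 and 0.0123% higher in MPP4, so few genes of any kind were called. DESeq2 likewise called 0 members in each population, with 1.59% of all genes called in either direction in LT-HSC. Among the values the authors' deposited table gives, 0 members had an adjusted p under 0.05, and the smallest were 0.124 in LT-HSC for Rps14, 0.986 in MPP3 for Rpl22l1 and 1.0 in MPP4 for Rpl10.

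In LT-HSC most values lay above 0. Of 80 members 74 lay above 0 with a median log2 of 0.28, against 0.01 over all genes, 0.08 over genes of like length and 0.23 over the mitochondrial ribosomal proteins. An unadjusted p under 0.05 was found for 9 members (11.3%), near the 11.2% of all tested genes. In 12 the 3 KO libraries lay above the 3 WT libraries (9.15% of all genes did so). The summed level was 5963 ± 1088 CPM in KO (SD, n = 3) and 5077 ± 546 CPM in WT, and the ranges overlapped. The median log2 fold change was 0.11 without KO 3 and 0.42 without KO 1. The neutrophil markers moved the other way, with their highest sums in WT 2 and WT 3. In a fit without those libraries, MPP3 WT 1 and 2 and MPP3 KO 1, the median was 0.52, against 1 WT library. That library, LT-HSC WT 1, had the lowest summed level of the members among the 18 libraries (4450 CPM). The part of these markers in the result was not tested further.

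Rps14 had the smallest p among the members in LT-HSC, with 239, 269 and 355 CPM in KO and 196, 219 and 207 CPM in WT. The genotypes did not overlap, and the log2 fold change of 0.47 ± 0.16 did not pass (edgeR adjusted p = 0.29). Rpl27, at 14.4, 14.8 and 18.7 CPM in KO and 11.4, 8.38 and 10.4 CPM in WT, stood at 0.66 ± 0.23 (edgeR adjusted p = 0.316), and Rpl8, at 400, 421 and 568 CPM in KO and 336, 383 and 380 CPM in WT, at 0.34 ± 0.14 (edgeR adjusted p = 0.375). Neither overlapped between genotypes. Rpl32, with 152, 197 and 250 CPM against 121, 181 and 145 CPM, overlapped and stood at 0.42 ± 0.18 (edgeR adjusted p = 0.404).

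In MPP3 65 of 80 members lay above 0 with a median of 0.18. None of the 80 had an unadjusted p under 0.05, and 3 did not overlap as higher in KO (5.01% of all genes). The summed level was 7972 ± 511 CPM in KO (SD, n = 3) and 7184 ± 1335 CPM in WT, with overlapping ranges. The smallest p belonged to Rpl13 (log2 0.22 ± 0.13), Rpl22l1 (0.47 ± 0.27), Rpl8 (0.23) and Rps14 (0.24), each with an edgeR adjusted p of 1. The libraries carrying B and plasma cell transcripts bear on this comparison, since 2 of them are WT and 1 is KO. In a fit without these 3 libraries and without LT-HSC WT 2 and 3, 1 MPP3 WT library was left. That library, MPP3 WT 3, had the highest summed level of the members among the 18 libraries (8660 CPM). The median was -0.09 there and 14 of 80 members lay above 0. The sign of Rpl13, Rpl8 and Rps14 turned there.

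In MPP4 23 of 80 members lay above 0 with a median of -0.09. By edgeR 0 members had an unadjusted p under 0.05, 1 member did not overlap as higher in KO (3.96% of all genes) and 2 as lower (4.02%). The summed level was 7096 ± 222 CPM in KO (SD, n = 3) and 7704 ± 1037 CPM in WT, with overlapping ranges. Rpl15 at -0.24 ± 0.14, Rps9 at -0.20 ± 0.14, Rpl23a at 0.85 ± 0.63 and Rplp1 at -0.35 ± 0.26 had the smallest p (edgeR adjusted p = 1 each). Rps9 had 343, 353 and 306 CPM in KO and 354, 398 and 398 CPM in WT, all KO libraries below all WT libraries.

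The difference of the KO effect between populations is also the difference, between genotypes, of the step from stem cell to progenitor, and it was tested directly. By edgeR 0 of 80 members passed in any of the 3 differences, where 0.0% of all genes were called in each. The median difference of the members was -0.13 when the effect in LT-HSC was taken from that in MPP3, -0.39 when it was taken from that in MPP4, and -0.28 when the effect in MPP3 was taken from that in MPP4. In the second of these 7 members (8.75%) had an unadjusted p under 0.05, against 6.65% of all tested genes and 7.92% of the protein-coding genes of like length. The 7 members included Rps14 at -0.66 ± 0.22 (edgeR adjusted p = 0.653) and Rps9 at -0.50 ± 0.19 (edgeR adjusted p = 0.71). In the first Rpl10 stood at -0.90 ± 0.63 and Rpl27 at -0.43 ± 0.32, and in the last Rps14 at -0.43 ± 0.22 and Rps2 at -0.36 ± 0.19, each with an edgeR adjusted p of 1. The 43 calls in WT MPP4 and the 1 call in KO MPP4 are therefore not shown to differ gene by gene.

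The paralogs are set beside their parent genes here, and the difference in fold change between a paralog and its parent was not tested. Rpl7l1 (chr17:46773907-46782672), related to a yeast large-subunit assembly factor, is the relative of Rpl7. It had 258, 235 and 259 CPM in LT-HSC WT, 259, 210 and 265 CPM in MPP3 WT and 219, 233 and 250 CPM in MPP4 WT, and its groups overlapped. Its log2 fold changes were -0.04 ± 0.10 in MPP3 and -0.10 ± 0.10 in MPP4 (adjusted p by edgeR = 0.848 and 0.51). Rpl7 had 109, 147 and 153 CPM in LT-HSC, 140, 161 and 204 CPM in MPP3 and 139, 204 and 209 CPM in MPP4, at 0.30 ± 0.19 and 0.43 ± 0.19, and did not pass either (edgeR adjusted p = 0.299 and 0.105). Per kb Rpl7l1 made up 65.3 ± 4.76% of the pair in LT-HSC WT (SD, n = 3), 59.7 ± 4.79% in MPP3 WT and 56.8 ± 4.26% in MPP4 WT. It made up 61.8% in LT-HSC KO, 55.2% in MPP3 KO and 58.5% in MPP4 KO. Rpl7 has 49.3% of its 50-base stretches elsewhere and Rpl7l1 7.48%, so the share depends on how repeated reads were counted.

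Rps27l (chr9:66946086-66949516), a paralog of Rps27 and in other cells a p53 target, carried nearly all counted reads of its pair. Its share per kb lay between 95.5% and 99.1% over the libraries. It had 37.8, 43.8 and 41.2 CPM in LT-HSC WT, 57.7, 62.5 and 86.2 CPM in MPP3 WT and 68.2, 72.1 and 82.6 CPM in MPP4 WT. Neither progenitor overlapped LT-HSC, and Rps27l rose by 0.75 ± 0.19 and 0.86 (edgeR adjusted p = 0.0115 and 0.00264). Rps27 itself had 0.514 to 2.56 CPM in WT libraries and has 46.2% of its stretches elsewhere, against 16.2% for Rps27l. The share of Rps27l in the pair therefore also depends on how repeated reads were counted. Rpl22l1, which binds RNA and can stand in for Rpl22, made up 8.13 ± 1.8% of its pair in LT-HSC WT, 6.43 ± 1.20% in MPP3 WT and 6.03 ± 0.07% in MPP4 WT, and 6.77%, 8.61 ± 1.74% and 7.15% in KO. In MPP3 it had 11.7, 12.1 and 12.4 CPM in KO and 5.12, 9.49 and 11.6 CPM in WT, so the genotypes did not overlap, and the difference did not pass.

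**Figure D5:**
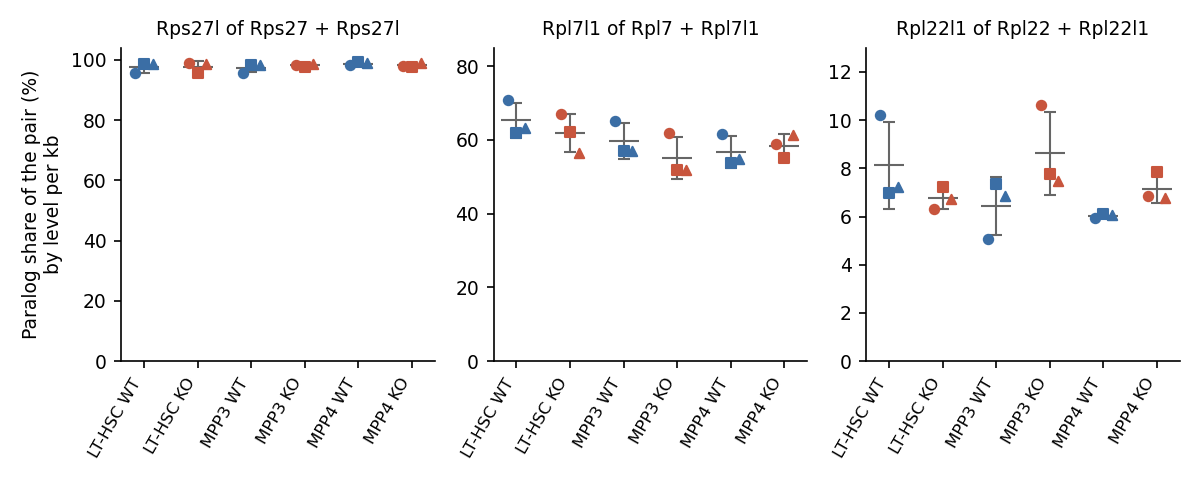
Share of the paralog in the summed level per kb of each pair (y axis, percent, from 0), by group, with points for libraries and the mean of 3 libraries, for Rps27l with Rps27, Rpl7l1 with Rpl7 and Rpl22l1 with Rpl22. Rps27l lies above 95% in every library, Rpl7l1 is highest in LT-HSC WT (mean 65.3%), and Rpl22l1 stays low (means of 6.03% to 8.61%). The shares depend on how reads that match several genes were counted.

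Rpl39l (chr16:10170226-10174911), the testis-enriched copy of Rpl39, had 0 reads in all 9 WT libraries and reads in 6 of 9 KO libraries. The KO libraries held 9, 4 and 4 reads in LT-HSC, 1, 0 and 0 in MPP3 and 12, 0 and 2 in MPP4. The KO reads were pooled and not bounded, so the folds given here are not lower limits. Against a floor of 3 reads over the 3 WT libraries Rpl39l stood 6.99-fold higher in LT-HSC KO. It stood 5.37-fold higher in MPP4 KO, where library 1 held most reads and library 2 held 0. With no filter on low counts it did not pass (edgeR adjusted p = 0.492 in LT-HSC, 0.983 in MPP3 and 1.0 in MPP4), and the floor covers counting error only, since no molecular identifiers were used. Rpl3l (chr17:24727820-24736143), a copy of Rpl3 used in heart and skeletal muscle, had 140 reads in 17 of 18 libraries together, with 39, 3 and 8 reads in MPP4 WT 1, 2 and 3.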

How the data were processed

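Poly(A) RNA of 18 libraries was measured. Per the labels' protocols, 10000 to 40000 sorted cells gave total RNA, of which 1000 pg went into SMART-Seq v4 cDNA with 12 cycles, and 600 pg of cDNA into Nextera XT libraries with 12 more. The genome build mm10, bcl2fastq 2.17.1.14 and DESeq are named by the submitters' processing notes, and the aligner, counter, annotation release and strand setting are not given there or in the labels. The authors deposited whole-number counts per gene, raw per the file headers, and these entered every test. The authors also deposited a normalised signal, which equals the count over a size factor of 0.812 to 1.72 per library and was not tested, and log2 fold changes and p-values of KO against WT, copied where named. The transcript length used for levels per kb is another column of the deposited table.

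Genes were kept by filterByExpr (16325 genes), scaled by TMM, and fitted with edgeR 4.0.16 (R 4.3.3) in 1 quasi-likelihood model of 18 libraries with a mean per group (common dispersion 0.164, prior degrees of freedom 4.32). P-values were adjusted by Benjamini-Hochberg over all tested genes, within each comparison, at 0.05. Each standard error was the size of the log2 fold change divided by the root of its F. The alternatives included DESeq2 1.42.0 and voom of limma 3.58.1, and the scripts were tested on simulated data. A gene at 0 reads in a group was bounded with a floor of 3 reads over the group. The libraries of a genotype with the same number come from the same mouse, per the labels and the series' design, and their deviations correlated across populations by 0.0554 to 0.248. Libraries with the same number but the other genotype, from other mice, also correlated, by 0.0226 to 0.129. The correlation therefore does not single out the mouse. The shared mouse pairs the population comparisons, and the block is given there. Replicates are separate mice.

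The members and gene lists were chosen with earlier results of these data known. Members were named by a rule: the paralogs with their parents, the stalk genes, the 5 highest and 5 lowest per kb, up to 10 with the largest called change in each WT comparison, and those called, or else the 4 (for differences 2) with the smallest p, in KO comparisons; other lists name up to 2 genes. The KO population comparisons, the most abundant members and values beyond this rule were chosen after their values were seen. Coordinates are those of the deposited table, and 79 of 81 members have the same in GENCODE M21. No gene was without a name, and the title of a sample matched each of its columns. Some members that the rule names are not reported here.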

Additional observations from a re-analysis of the deposited data

How the results depend on the processing

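The directions given for the members kept their side of the threshold under upper-quartile scaling, TMM without the members, and no filter on low counts, within 1.5 times of the counts called. In WT MPP3 against LT-HSC the 18 members higher became 8 when only the groups compared were fitted, 28 by DESeq2 and 36 by limma voom, and 3 to 28 with 1 library left out. In WT MPP4 against LT-HSC the 43 became 26 with only the groups compared and 15 to 45 with 1 library left out. In KO MPP3 against LT-HSC the 8 became 5 under RLE scaling, 2 with libraries 2 and 3 alone, 14 by DESeq2 and 22 by limma voom, and 1 to 18 with 1 library left out. In KO MPP4 against LT-HSC the 1 became 0 with only the groups compared or with libraries 2 and 3 alone, 2 by DESeq2 and 3 by limma voom, and 0 to 3 with 1 library left out. The cause of these changes was not tested, except that fewer libraries entered some fits. With the mouse as a replicate block the counts were 42, 54, 23 and 10 in these 4 comparisons. In the comparisons of KO with WT, where samples share only a number, the block called 0 members. All other counts of members, in either direction, were 0 throughout, and lay between 0 and 0 with 1 library left out.

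Some libraries had the highest sums of mature cell markers within their populations (LT-HSC WT 2 and 3, MPP3 WT 1 and 2, MPP3 KO 1). Without them, which leaves 1 library in 2 of the groups, the summed level was 4450 CPM in LT-HSC WT and 8660 CPM in MPP3 WT. These were the lowest and the highest of the 18 libraries. The shares in LT-HSC WT were 10.2% for Rpl22l1, 0.538% for Rpl3l, 70.7% for Rpl7l1 and 95.5% for Rps27l. In MPP3 KO against WT the log2 fold changes of Rpl13, Rpl8 and Rps14 turned to -0.0068, -0.015 and -0.061. The median of the members there was 1.08 in WT MPP3 against LT-HSC, 0.85 in WT MPP4 against LT-HSC and -0.23 in WT MPP4 against MPP3. Of the values of named genes under all alternatives 575 kept their side of the threshold, 66 no longer passed it and 3 turned.

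With 1 library left out the summed level ran from 4892 to 5391 CPM in LT-HSC WT, 5351 to 6393 in LT-HSC KO, 6446 to 7745 in MPP3 WT, 7712 to 8222 in MPP3 KO, 7388 to 8303 in MPP4 WT and 6988 to 7210 in MPP4 KO.

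Limits: 3 mice per group, no molecular identifiers, and unknown treatment of reads that match several copies bound these values. Under 1 CPM the depth limits what can be seen: for Rpl23a the standard error of the log2 fold change in MPP4 KO against WT was 0.63, as large as the median step of the members.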

Other observations

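Ribosomal protein genes that the naming rule leaves out were looked at as well. Of 6 tested, 3 were higher in WT MPP3 than in LT-HSC and 2 in WT MPP4, and 0 were lower. Over all tested genes 9.68% and 14.1% were higher. Rack1, a scaffold protein of the small subunit, had 419 ± 32.1 CPM in LT-HSC (SD, n = 3) and 625 ± 115 CPM in MPP3, and rose by log2 0.58 ± 0.13 in MPP3 and 0.59 in MPP4 (adjusted p by edgeR = 0.00717 and 0.00366). Rpl36al, a copy of Rpl36a, rose by 0.74 and 0.78 (edgeR adjusted p = 0.0116 and 0.00459). Rplp0, the base of the stalk, stood at 0.51 ± 0.35 and 0.63 ± 0.35 and did not pass (edgeR adjusted p = 0.341 and 0.191).

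Free ribosomal proteins are known to bind Mdm2 and so stabilise p53, and 12 tested p53 targets were read beside the members. In WT MPP3 1 was higher and 0 lower than in LT-HSC, where 9.68% of all tested genes were higher and 7.66% lower. In WT MPP4 4 were higher and 1 lower, where 14.1% of all tested genes were higher and 13.1% lower. Cdkn1a, an inhibitor of cell division, had 3.44 ± 1.75 CPM in LT-HSC and 17.8 ± 3.73 CPM in MPP4, and rose by log2 1.63 ± 0.42 in MPP3 and 2.37 ± 0.43 in MPP4 (adjusted p by edgeR = 0.0135 and 0.000584). Sesn1, a stress-induced inhibitor of mTORC1 signalling, rose by 0.75 ± 0.12 in MPP4 (edgeR adjusted p = 0.000188). Mdm2 itself stood at -0.17 and -0.26 and did not pass (edgeR adjusted p = 0.456 and 0.204). No link between these genes and the members was tested.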
